A study of Mus musculus with 24 samples.

Results

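Myotubes made in culture from primary mouse myoblasts (PMs) were compared with those made from the C2C12 line at day 6 of differentiation, in cells that had received a control siRNA (siControl). The comparison rests on 4 of the 24 RNA-seq libraries of the study, 2 biological replicates of each cell type. It takes in every gene that does not lie on the X or Y chromosome, which is 26586 of the 28109 genes listed. In the study both cell types received either siControl or siRNAs that silence Tead1 along with Tead4 (siTead1/4), and mRNA was collected at day 0, day 3 and day 6.

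The 2 PM libraries came from C57BL/6 (C57/B6 in the labels) wild-type mice of 3 to 4 weeks. These cells were plated on matrigel in an IMDM-based medium. The 2 C2C12 libraries came from a single established myoblast line of the C3H strain, grown in DMEM. All 4 cultures received an siRNA against luciferase, a gene that mouse cells lack, 24 h before day 0 and were then kept in medium with 2% horse serum. Cell type, mouse strain, donor age, long-term culture, medium and coating therefore changed together and cannot be told apart. The sources used here do not say whether PMs were sorted, and other cells of the muscle may have been present. In such bulk samples fewer cells of a type and less RNA per cell cannot be told apart. The labels call the replicates biological but do not say whether they were separate isolations or passages. The p-values measure the spread between replicate libraries, pooled over all 24 libraries in 12 groups and not taken from these 4 alone. This spread may be in part technical.

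In muscle formation, myoblasts that express Myod1 and Myf5 leave the cell cycle, switch on Myog and fuse into multinucleated myotubes. The myotube then builds sarcomeres, in which myosin thick filaments slide along actin thin filaments anchored at the Z-disc. Calcium released from the sarcoplasmic reticulum through Ryr1 triggers contraction through the troponins. Myosin heavy chains appear in sequence, with embryonic Myh3 and perinatal Myh8 ahead of the adult fast forms Myh1, Myh2 and Myh4.

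The total count on genes was 33856925 and 34450979 in the PM libraries and 51424994 and 30356060 in the C2C12 libraries. Replicates correlated at a Pearson's r across genes of 0.990 in PMs and 0.987 in C2C12 cells on log2 counts. They differed by far more than counting noise, with a chi-square per gene of 49.7 and 74.1. Mitochondrial genes took 5.14% and 5.13% of the counts in PMs and 3.89% and 3.46% in C2C12 cells. The 10 most abundant genes took 8.69% and 9.01% of the counts in PMs against 6.12% and 5.95%. The filter on low counts left 16307 genes to be tested, and 10279 did not pass it.

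Both cell types carried the markers of differentiated skeletal muscle. Of 10 marker genes (Myod1, Myog, Des, Acta1, Ckm, Myh3, Mylpf, Tnnt3, Ttn and Chrna1) all were abundant in all 4 libraries, and their summed level was 42320 and 49070 CPM in PMs, where CPM are counts relative to the scaled library size, and 25940 and 28250 CPM in C2C12 cells. Only Ckm, Tnnt3 and Ttn were called higher in PMs, and none was called lower (median log2 fold change 0.78). Myogenin (Myog), the factor that commits myoblasts to differentiate, stood at 858 and 1159 CPM in PMs and 718 and 990 CPM in C2C12 cells, and the ranges overlapped. Myod1 was at 249 and 445 CPM against 175 and 184 CPM. Its log2 fold change of 0.95 (edgeR adjusted p = 0.0055) lay just under the limit set for a call. The calls of Ckm, Tnnt3 and Ttn were each lost when certain single libraries were left out, so that the 10 markers had 1 call without PM replicate 2, none without C2C12 replicate 1 and 1 without C2C12 replicate 2.

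A gene was called where the Benjamini-Hochberg adjusted p of edgeR's quasi-likelihood test was under 0.05 and the absolute log2 fold change was over 1. Fold changes are given as PM over C2C12. By this rule 4014 genes (24.6% of those tested) differed between the cell types. Of these, 2525 were higher in PMs (15.5%) and 1489 were lower (9.13%), so that 62.9% of the calls were on the side of PMs. These shares of 15.5% and 9.13% are the background for every list count given here. The median log2 fold change of all tested genes was 0.02. Differences were often large, since 743 genes were higher and 270 lower by over 4 on the log2 scale. For 36.1% of the tested genes both PM libraries lay above both C2C12 libraries, and for 33.3% both lay below, which is the background for every statement on overlap given here.

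**Figure D1:**
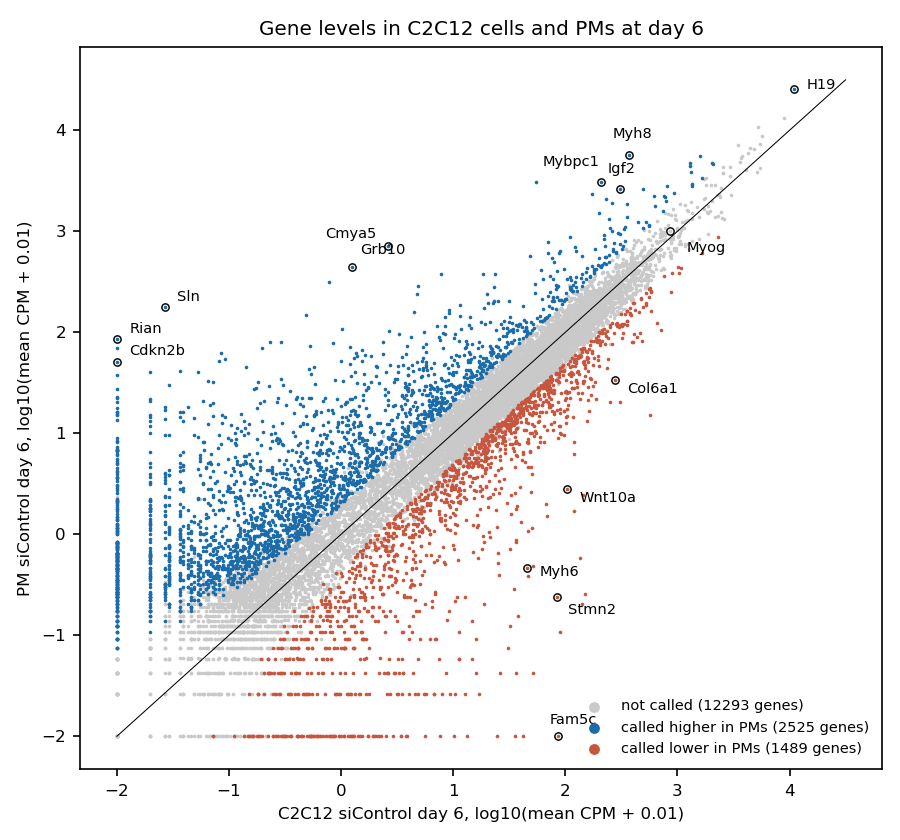
Mean level of each tested gene in C2C12 cells (horizontal axis) and in PMs (vertical axis) at day 6 with siControl, as log10 of CPM + 0.01 over 2 libraries, on which equal levels fall on the diagonal line. Genes called higher in PMs (2525) and lower in PMs (1489) are coloured, Myog lies near the diagonal, and the column of points at the left edge holds genes with no count in C2C12 cells, such as Rian and Cdkn2b.

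Myosin heavy chains were more abundant in PMs, with summed levels of 20090 and 23940 CPM against 6622 and 11410 CPM in C2C12 cells. Of the 9 tested genes, 3 were higher in PMs and 1 was lower, with a median log2 fold change of 0.99. Of the 3 higher genes perinatal Myh8 had the largest log2 fold change, with 4923 and 6523 CPM in PMs and 176 and 569 CPM in C2C12 cells. Its lowest PM library was thus far above its highest C2C12 library (log2 fold change 3.94 ± 0.77 standard error (SE), edgeR adjusted p = 0.00071). Fast Myh4 was at 3177 and 2065 CPM against 406 and 579 CPM (log2 fold change 2.41, edgeR adjusted p = 0.021). Fast Myh1 was at 4350 and 5045 CPM against 1410 and 2669 CPM (log2 fold change 1.20, edgeR adjusted p = 0.035). The replicates did not overlap for any of these 3 genes, yet the Myh1 call was near the limit.

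Embryonic Myh3 did not pass the test (log2 fold change 0.60, edgeR adjusted p = 0.20), with 7403 and 9985 CPM in PMs and 4329 and 7125 CPM in C2C12 cells. Per kb of gene length it had the highest level of the family in both cell types. Its level was 1204 and 1624 CPM per kb in PMs, where Myh8 reached 625 and 829 CPM per kb. In C2C12 cells Myh3 was at 704 and 1158 CPM per kb and Myh8 at 22.4 and 72.2 CPM per kb. The slow myosin Myh7 did not pass the test either, with 94.4 and 153 CPM in PMs and 188 and 284 CPM in C2C12 cells. Its neighbour Myh6, the atrial form, went the other way from the fast genes. It was at 0.356 and 0.554 CPM in PMs and 40.0 and 50.8 CPM in C2C12 cells (log2 fold change -6.63 ± 0.38 SE, edgeR adjusted p = 1.5e-09). Reads of near-identical myosin genes can be assigned to the wrong member, so single levels within this family are uncertain. In a window of 300 kb to either side of the Myh8 start on chromosome 11 of mm9, which was chosen after the values were seen, 13 genes were tested and 4 were higher in PMs. These were Myh8, Myh4, Myh1 and the antisense gene Gm12300, which overlaps Myh genes and whose reads cannot be told from theirs because the libraries do not keep the strand.

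Thin filament and light chain genes had smaller medians. In the list of troponins, tropomyosins and sarcomeric actins 3 of 12 tested genes were higher in PMs and 2 were lower, with a median log2 fold change of 0.73. Cardiac actin (Actc1) was at 2364 and 3256 CPM against 1244 and 1439 CPM (log2 fold change 1.07, edgeR adjusted p = 0.017). Skeletal actin (Acta1), at 10320 and 11350 CPM against 5230 and 5143 CPM, was not called (log2 fold change 1.06, edgeR adjusted p = 0.062). The fast troponins Tnnt3 and Tnnc2 passed at log2 fold changes of 1.15 and 1.16. The 2 lower genes were the cardiac troponin Tnni3 (log2 fold change -3.19, edgeR adjusted p = 0.00013) and the tropomyosin Tpm3 (log2 fold change -1.44). Of 9 light chain and light chain kinase genes, Myl6b and Mylk4 were higher in PMs and the cardiac kinase gene Mylk3 was lower, with a list median of 0.41. These small counts depended on single libraries. Without either C2C12 replicate none of the 3 higher thin filament genes (Actc1, Tnnt3 and Tnnc2) was called, and without either PM replicate 1 was. Of the heavy chains, 1 was called higher without PM replicate 1 or C2C12 replicate 1 and 4 without C2C12 replicate 2, and Myh1 and Myh4 were both lost in the first 2 cases. Of the light chain genes, 1 was called higher without PM replicate 2 or C2C12 replicate 1.

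The Z-disc, titin and M-band genes showed the broadest difference of the sarcomere, with 25 of 44 tested genes higher in PMs and 2 lower (median log2 fold change 1.21). Cmya5, a large costameric protein, was at 814 and 608 CPM in PMs and at 1.12 and 4.11 CPM in C2C12 cells. Its difference, 8.15 ± 0.62 (SE) on the log2 scale with an edgeR adjusted p of 4.6e-08, was the largest of the list. The Z-disc calsarcin Myoz1 was at 328 and 242 CPM against 5.24 and 4.48 CPM (log2 fold change 5.87, edgeR adjusted p = 6.9e-07). Xirp2, which binds actin at the cell junctions of muscle, was at 394 and 364 CPM against 7.21 and 8.39 CPM. For each of these 3 genes the groups were separated by more than the whole range of either. The thin filament cap Tmod4 and the related calsarcin Myoz3 had log2 fold changes of 5.42 and 5.49. Titin (Ttn) was at 2815 and 4852 CPM against 1168 and 1452 CPM (log2 fold change 1.55, edgeR adjusted p = 0.0089).

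The 2 Z-disc genes that were lower in PMs were the slow calsarcin Myoz2 and the stretch-induced Ankrd2. Myoz2 was at 47.5 and 84.1 CPM in PMs and 180 and 163 CPM in C2C12 cells (log2 fold change -1.38, edgeR adjusted p = 0.0083). Ankrd2 was at 5.69 and 7.30 CPM against 42.0 and 41.4 CPM (log2 fold change -2.68, edgeR adjusted p = 0.00017). Without C2C12 replicate 1 the list had 16 genes called higher in PMs, and Ttn was not called there or without PM replicate 2. Myoz2 was not called without PM replicate 1.

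The promoters of 4 sarcomere genes are shown because they stand for the contrast among these genes. They are Actn2 (Z-disc alpha-actinin), Mybpc1 (slow myosin binding protein C) and Tmod4, which were all higher in PMs, and Myh6, which was lower. Actn2 was at 2116 and 2099 CPM in PMs and 167 and 298 CPM in C2C12 cells (log2 fold change 3.18, edgeR adjusted p = 1.7e-05). Mybpc1 was at 3196 and 2898 CPM against 160 and 254 CPM (log2 fold change 3.88, edgeR adjusted p = 3.8e-05). Actn2 and Mybpc1 were chosen for their high levels after their values were seen. Each sequence holds the 250 bases before a RefSeq gene start on the GRCm38.p6 build, read 5′ to 3′ on the strand of the gene, with Actn2 at chr13:12340733-12340982 (minus strand), Mybpc1 at chr10:88605153-88605402 (minus), Tmod4 at chr3:95124264-95124513 (plus) and Myh6 at chr14:54966608-54966857 (minus). The counts themselves were made on mm9. Capitals mark the E-box CANNTG with any middle letters, a broad class of sites that includes those of Myod1 and Myog but is not limited to them. They also mark the MCAT letters CATTCC, which Tead factors recognise, each on both strands.
Actn2: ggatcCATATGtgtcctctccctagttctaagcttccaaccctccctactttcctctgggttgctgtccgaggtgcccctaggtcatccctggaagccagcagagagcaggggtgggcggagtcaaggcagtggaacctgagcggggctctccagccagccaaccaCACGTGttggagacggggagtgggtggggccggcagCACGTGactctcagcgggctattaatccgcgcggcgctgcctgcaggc
Mybpc1: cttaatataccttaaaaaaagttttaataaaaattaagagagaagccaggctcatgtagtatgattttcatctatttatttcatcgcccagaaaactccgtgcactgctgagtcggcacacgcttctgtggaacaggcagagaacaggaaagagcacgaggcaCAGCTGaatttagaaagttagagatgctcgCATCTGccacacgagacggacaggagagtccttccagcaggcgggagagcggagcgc
Tmod4: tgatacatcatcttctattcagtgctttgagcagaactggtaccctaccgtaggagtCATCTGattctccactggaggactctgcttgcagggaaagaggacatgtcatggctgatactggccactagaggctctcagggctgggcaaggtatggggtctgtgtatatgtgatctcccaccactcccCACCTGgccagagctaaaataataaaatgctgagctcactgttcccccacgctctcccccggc
Myh6: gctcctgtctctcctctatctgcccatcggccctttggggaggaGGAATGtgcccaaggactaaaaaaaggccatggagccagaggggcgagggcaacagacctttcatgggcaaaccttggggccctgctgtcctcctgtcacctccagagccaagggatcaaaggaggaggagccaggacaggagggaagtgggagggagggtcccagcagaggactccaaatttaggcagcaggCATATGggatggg

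The 4 windows hold 3, 2, 2 and 1 E-boxes, and Myh6 alone of them holds the MCAT letters, on the opposite strand. Such letters are common. CANNTG occurs in 66.2% of all 32851 RefSeq promoter windows of this length, in 58.7% of those of the tested genes that could be matched by symbol, in 65.4% of those of genes higher in PMs and in 61.8% of those of genes lower in PMs. CATTCC occurs in 12.6%, 11.2%, 13.5% and 13.3% of these groups. The matches describe the windows and say nothing of binding.

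**Figure D2:**
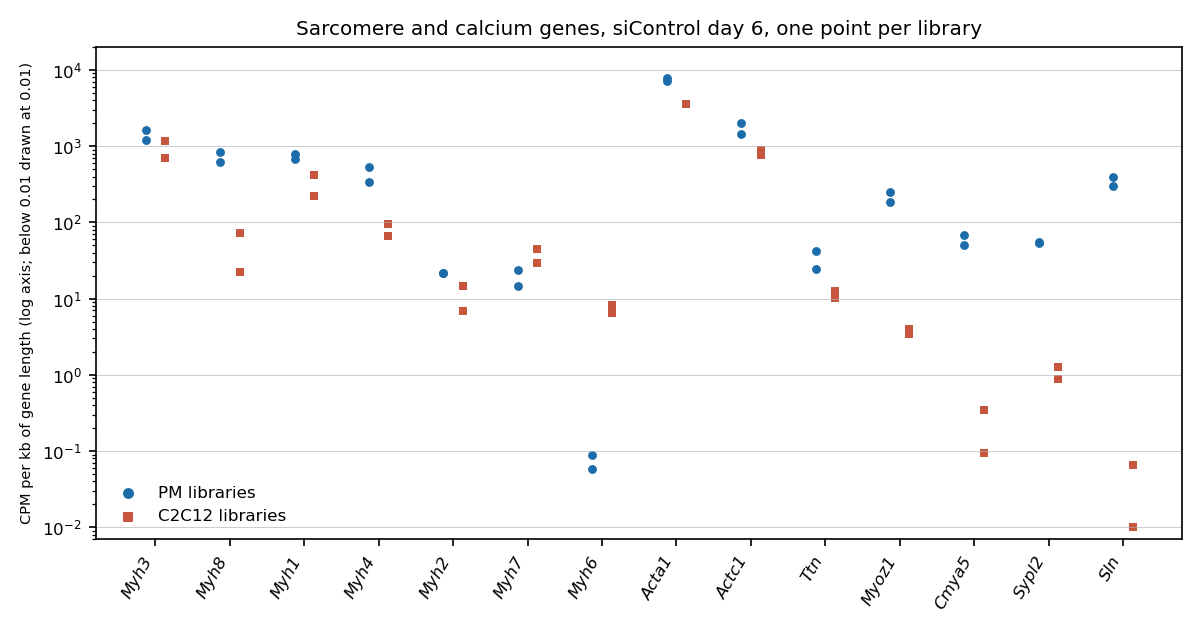
Level of 14 sarcomere and calcium-handling genes in each siControl library at day 6, as CPM per kb of gene length on a log axis, with circles for PM libraries and squares for C2C12 libraries and values below 0.01 drawn at 0.01. Myh8, Myh4, Myoz1, Cmya5, Sypl2 and Sln are well apart between the cell types, Myh6 is apart in the opposite direction, and Myh3 and Acta1 lie closer together.

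Genes of calcium handling and membrane excitation were higher in PMs in 15 of 36 cases and lower in none, with a median log2 fold change of 0.70. Sarcolipin (Sln), a small inhibitor of the calcium pump, was at 155 and 200 CPM in PMs, while C2C12 cells had 0 counts in replicate 1 and 0.0334 CPM, a single read, in replicate 2. The ratio of about 14500 has a 95% counting interval from 2610 to 575000, which covers counting error only. Its relative phospholamban (Pln) was at 1.42 and 3.06 CPM against 0.0193 and 0.0668 CPM. Sypl2 (mitsugumin 29, a protein of the triad) was at 242 and 232 CPM against 3.86 and 5.55 CPM (log2 fold change 5.67, edgeR adjusted p = 2.7e-08). The potassium channel genes Kcnj11 and Kcna7 had log2 fold changes of 5.70 and 4.98. In each of these genes PM and C2C12 libraries were clearly separated.

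The core of the calcium release unit was present in both cell types and showed smaller differences. The release channel Ryr1 was at 2110 and 2283 CPM against 669 and 894 CPM (log2 fold change 1.49, edgeR adjusted p = 0.0011). The calcium pump Atp2a1 was at 4925 and 4496 CPM against 1194 and 1382 CPM (log2 fold change 1.87). The store protein Casq1 had a log2 fold change of 2.42 and parvalbumin (Pvalb), the calcium buffer of fast fibres, one of 3.47. The voltage sensor Cacna1s, at 836 and 1228 CPM against 419 and 586 CPM, did not pass (edgeR adjusted p = 0.050). These 5 genes were chosen after their values were seen, for their known role.

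Of the components that tie the myotube to nerve and matrix, those of the nerve were called at a share of 27.8%, near the 24.6% of all tested genes, and those of the matrix link at 5.0%. In the neuromuscular junction list 4 of 18 genes were higher in PMs and 1 was lower (median log2 fold change 0.13). Acetylcholinesterase (Ache) was at 45.0 and 30.7 CPM against 3.70 and 4.21 CPM (log2 fold change 3.26, edgeR adjusted p = 1.8e-06). The adult receptor subunit Chrne was at 15.7 and 20.4 CPM against 4.47 and 4.95 CPM (log2 fold change 1.94), whereas the subunit Chrna1 had a log2 fold change of -0.03. Ky, a muscle protein with a protease-like fold, and the factor Etv5 were also higher, and the agrin receptor Lrp4 was lower in PMs (log2 fold change -1.39, edgeR adjusted p = 0.00013). Lower calls in this list were 2 without PM replicate 2 or C2C12 replicate 2. In the dystrophin-glycoprotein list 1 of 20 genes was called, the neuronal-type nitric oxide synthase Nos1 (46.0 and 82.9 CPM against 25.7 and 16.8 CPM, edgeR adjusted p = 0.041), and the median was 0.09. The call of Nos1 was lost without PM replicate 2 and without either C2C12 replicate, and up to 2 other genes were called in either direction when single libraries were left out.

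Among 35 myogenic transcription factors and cofactors 7 were higher in PMs and none was lower, with a median of 0.27. Myf6 (Mrf4), the myogenic factor of late differentiation, was at 85.6 and 95.7 CPM in PMs and 4.16 and 4.21 CPM in C2C12 cells (log2 fold change 4.44, edgeR adjusted p = 9e-07). Mef2c, a partner of the myogenic factors, was at 1856 and 2097 CPM against 681 and 910 CPM (log2 fold change 1.31, edgeR adjusted p = 0.0022). Lbx1, which marks migrating limb muscle precursors, was at 42.5 and 53.7 CPM against 1.29 and 1.07 CPM (log2 fold change 5.33). Six2 was also higher. Pax3 and Eya2 had no count in either C2C12 library, so that their levels in PMs (1.33 and 0.946 CPM, and 2.43 and 1.86 CPM) were at least 9.43-fold and 18.5-fold higher than a floor of 3 counts per library. The remaining call, Vgll2, a muscle cofactor of Tead proteins, was named after its value was seen (log2 fold change 1.92). Its call was lost without C2C12 replicate 2. Myf5 was at 12.7 and 15.98 CPM against 16.6 and 8.59 CPM, and its groups overlapped.

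None of the 4 Tead genes, whose products bind MCAT elements, passed the test. Tead1 was at 283 and 175 CPM in PMs and 76.0 and 136 CPM in C2C12 cells, without overlap but with a wide spread (log2 fold change 1.11 ± 0.55 SE, edgeR adjusted p = 0.12). Tead4 was at 163 and 173 CPM against 86.5 and 150 CPM (log2 fold change 0.51 ± 0.29 SE, edgeR adjusted p = 0.18). Tead2 and Tead3 had log2 fold changes of -0.13 and 0.27. In a list of 23 genes of Yap-Tead signalling, most of them targets, 4 were higher and 4 lower in PMs, and the median was 0.03. Each of these counts is 17.4% of the list, against 15.5% higher and 9.13% lower of all tested genes. Ctgf, Amotl1, Crim1 and Wwc1 were the higher ones, of which Ctgf lost its call whichever single library was left out. Wwc1, an upstream regulator of the Hippo kinases, was at 11.1 and 13.6 CPM against 0.578 and 0.401 CPM (log2 fold change 4.62, edgeR adjusted p = 4.3e-09). F3, Nt5e, Foxf2 and Asap1 were lower, with log2 fold changes from -2.52 (F3) to -1.48 (Foxf2 and Asap1).

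Satellite cell markers did not stand higher in PMs at day 6. Of 22 tested genes 1 was higher and 5 were lower, with a median of -0.17. Pax7, the defining factor of satellite cells, was at 16.6 and 24.1 CPM in PMs and 17.4 and 25.8 CPM in C2C12 cells, an overlap of the ranges. The 5 lower genes were Vcam1, Cxcr4, Notch3, Megf10 and Foxc1. Cxcr4, the receptor that guides muscle precursors, was at 4.98 and 14.7 CPM against 113 and 71.5 CPM (log2 fold change -3.23, edgeR adjusted p = 0.0016). Chodl, the only higher one, was at 0.809 and 1.5 CPM against 0.0386 and 0.0668 CPM. Without PM replicate 1 or C2C12 replicate 2 the satellite list had 3 genes called lower, Notch3 and Megf10 being lost. In the fusion list 5 of 24 genes were higher (20.8%) and 3 lower (12.5%), against 15.5% and 9.13% of all tested genes (median -0.21). The fusogens themselves were not among the calls, since myomaker (Tmem8c) was at 735 and 1029 CPM against 923 and 1104 CPM and myomixer (Gm7325) at 41.0 and 81.9 CPM against 136 and 97.3 CPM. Nfatc2, which acts in myotube growth, was at 17.1 and 15.9 CPM against 0.308 and 0.869 CPM (log2 fold change 4.90, edgeR adjusted p = 5.1e-08). Without PM replicate 1, PM replicate 2 or C2C12 replicate 2 the fusion list had 3 genes called higher.

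At day 0, before the switch to low serum, the same comparison in 4 other libraries of the same fit gave 2593 genes higher (15.9%) and 1723 lower (10.6%) in PMs, 26.5% in all. Of the genes higher at day 6, 1474 were also higher at day 0, which is 58.4% of the day 6 list and 56.8% of the day 0 list. For the lower genes it was 730, or 49.0% and 42.4%. Opposite calls were 66 and 109. A direct test of the change in the difference between day 0 and day 6 called 12.7% of the genes. Of these, 876 went towards a higher fold change of PM over C2C12 at day 6 (5.37%) and 1190 towards a lower one (7.3%). The median log2 fold change over all genes was 0.02 at day 0, 0.03 at day 3 and 0.02 at day 6.

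Muscle genes were among those that changed. At day 0 the median log2 fold change was 5.88 for heavy chains, 5.92 for light chains, 5.91 for troponins and actins, 5.30 for Z-disc genes and 4.11 for calcium genes. The 10 skeletal muscle markers stood at 6.28. At day 6 the same medians were 0.99, 0.41, 0.73, 1.21, 0.70 and 0.78. The direct test was called towards a lower fold change of PM over C2C12 at day 6 for 8 of 9 heavy chains, 8 of 9 light chain genes, 9 of 12 thin filament genes, 31 of 44 Z-disc genes and 22 of 36 calcium genes, against 1190 of 16307 genes overall. These counts give the direction of the change and not its size, and they hold genes such as Myh6 and Ankrd2 that were lower in PMs at day 6. A lower fold change did not require a fall in PMs. Acta1 in PMs was at 2492 and 2165 CPM at day 0 and at 10320 and 11350 CPM at day 6. In C2C12 cells Acta1 went from 35.98 and 8.477 CPM to 5230 and 5143 CPM. Myog in PMs was already at 960 and 1039 CPM at day 0, where C2C12 cells had 9.68 and 2.91 CPM, and at day 6 the ranges overlapped as given above. Myh3 at day 0 was at 4113 and 3793 CPM in PMs and 14.8 and 7.20 CPM in C2C12 cells. Pax7 at day 0 was at 101 and 99.2 CPM in PMs and 23.3 and 18.6 CPM in C2C12 cells, and it was not called at day 6.

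A few sarcomere genes moved in the opposite way and differed more at day 6 than at day 0. The direct test called 2 of 44 Z-disc genes towards a higher fold change, and no heavy chain, light chain or thin filament gene. Of all tested genes it called 5.37% in this direction. Tmod4 was at 1.46 and 0.845 CPM in PMs and 0.704 and 0.462 CPM in C2C12 cells at day 0, and at 85.9 and 46.4 CPM against 1.64 and 1.44 CPM at day 6. The difference in its log2 fold change was 4.38 (edgeR adjusted p = 2.9e-05). Myoz1 also differed more at day 6, with 5.09 and 3.89 CPM against 1.07 and 0.0533 CPM at day 0 (difference 2.67, edgeR adjusted p = 0.039). For Myh6 the day 0 levels were 0.0636 and 0.0563 CPM in PMs and 0.197 and 0.0533 CPM in C2C12 cells, which is near the limit of detection in both. Ankrd2 turned round, from 15.3 and 11.3 CPM in PMs and 0.0844 and 0.0533 CPM in C2C12 cells at day 0 to the lower PM level at day 6.

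At day 3 the comparison gave 2773 genes higher (17.0%) and 2038 lower (12.5%) in PMs, 29.5% in all. The lists of day 3 and day 6 overlapped in 2029 higher genes (80.4% of those of day 6 and 73.2% of those of day 3) and 1221 lower genes (82.0% and 59.9%), and 1 gene was called in opposite directions. The direct test of the difference at day 6 against that at day 3 called 0.0% of the genes, higher (0.0%) or lower (0.0%). In that test edgeR gave 0 calls and 1324 genes at an unadjusted p under 0.05, while DESeq2 called 88 and 25. With a replicate block within each cell type edgeR called 41 higher and 9 lower. Oxidative phosphorylation genes had a median of 1.13 at day 3 and 0.56 at day 6, with 36 and 7 of 58 genes called higher, but no gene of this list passed the direct test.

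**Figure D3:**
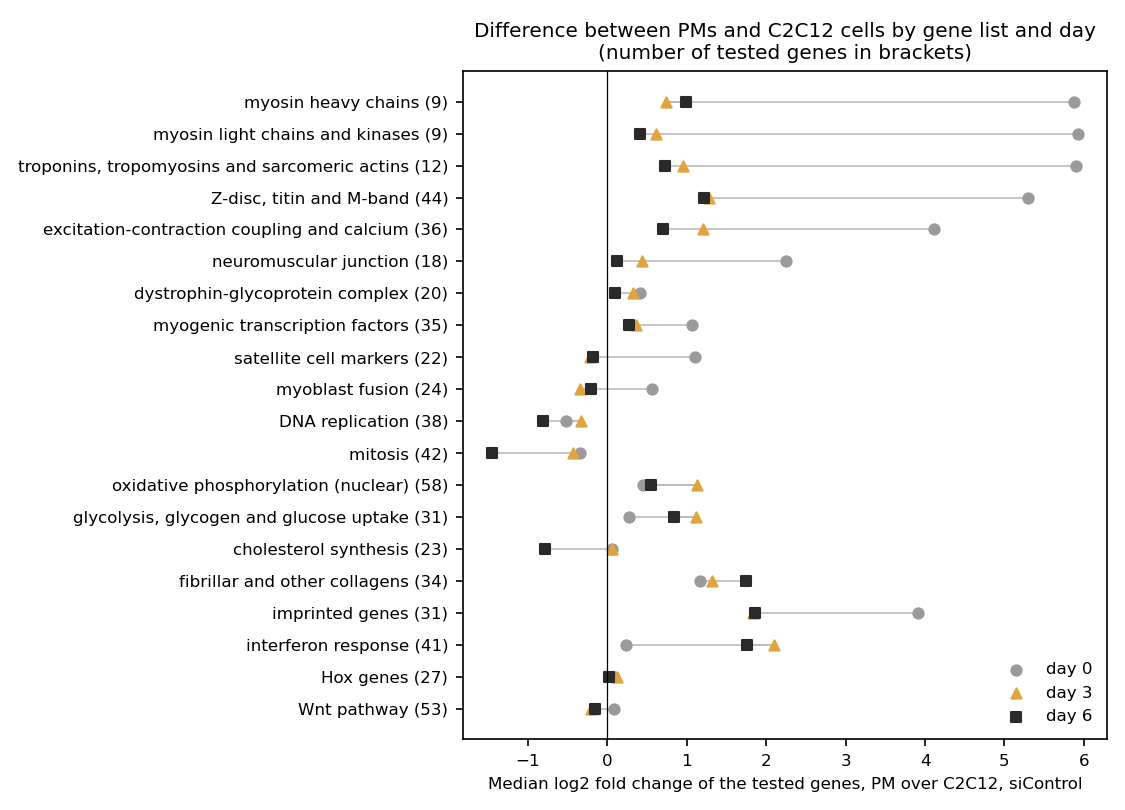
Median log2 fold change of PMs over C2C12 cells in 20 gene lists with siControl, with the number of tested genes in brackets, for day 0 (circles), day 3 (triangles) and day 6 (squares), each day from its own 4 libraries. The 5 sarcomere and calcium lists lie between 4.11 and 5.92 at day 0 and between 0.41 and 1.21 at day 6, while the median of collagens stays above zero on each day.

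Cell cycle genes leaned to a lower level in PMs. In the DNA replication list 12 of 38 genes were lower and none was higher, with a median log2 fold change of -0.81. The ribonucleotide reductase subunit Rrm2 was at 32.4 and 30.6 CPM in PMs and 137 and 148 CPM in C2C12 cells (log2 fold change -2.18, edgeR adjusted p = 2.1e-06), without overlap. The origin recognition gene Orc6 and the helicase gene Mcm6 had log2 fold changes of -1.55 and -1.56. In the mitosis list 12 of 42 genes were lower and none was higher (median -1.45), but here 1 library was far from its replicate. The summed mitosis level was 594 and 327 CPM in PMs and 515 CPM in C2C12 replicate 1, against 1814 CPM in C2C12 replicate 2. Cyclin A2 (Ccna2) was at 10.6 and 6.16 CPM against 13.2 and 59.7 CPM, and Mki67 at 26.3 and 13.01 CPM against 16.3 and 94.7 CPM. Without C2C12 replicate 2 the list had 1 gene called lower, without PM replicate 2 also 1, and without C2C12 replicate 1 it had 37. The mitosis difference thus rests on C2C12 replicate 2. For DNA replication these counts were 6, 6 and 21.

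Regulators of the cell cycle were called in both directions. Of 27 cyclins, Cdk inhibitors and pocket proteins 6 were higher and 3 lower in PMs (median -0.19). Cyclin D2 (Ccnd2) was at 471 and 291 CPM against 22.2 and 14.7 CPM (log2 fold change 4.37, edgeR adjusted p = 1.3e-06), and cyclin D1 (Ccnd1) at 144 and 73.1 CPM against 10.7 and 12.9 CPM (log2 fold change 3.21, edgeR adjusted p = 5.2e-07). Ccnd1 did not pass at day 0, when it was at 529 and 497 CPM in PMs and 398 and 491 CPM in C2C12 cells. The inhibitor Cdkn1c (p57), which is imprinted, was at 142 and 251 CPM against 12.9 and 27.7 CPM (log2 fold change 3.28). Cdkn1a (p21), which holds myotubes out of the cycle, was at 2105 and 2562 CPM in PMs and 2340 and 2363 CPM in C2C12 cells. These ranges overlapped fully (log2 fold change -0.01 ± 0.24 SE). Cdk2, Cdkn2c and E2f7 were lower in PMs, none of which was called without PM replicate 1, and lower calls were 6 without C2C12 replicate 1. Among p53 and its targets 5 of 28 genes were higher (17.9%) and 2 lower (7.14%), near the 15.5% and 9.13% of all tested genes. The median was 0.45, with Ccng1 at 951 and 586 CPM against 258 and 287 CPM and Btg2 at 94.6 and 112 CPM against 35.0 and 28.4 CPM.

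The Ink4 locus gave reads in PMs and none in C2C12 cells. Cdkn2a, which encodes p16 and p19Arf, lies on chromosome 4 of mm9 from 88920377 to 88940557, and Cdkn2b (p15) from 88952198 to 88956941. Cdkn2a had 31.1 and 45.1 CPM in PMs and 0 counts in both C2C12 libraries, and was at least 311-fold higher. For Cdkn2b the levels were 51.9 and 50.7 CPM against 0 counts, a difference of at least 506-fold. At day 0 and day 3 no C2C12 library was above 0.0563 CPM for Cdkn2a or 0.0236 CPM for Cdkn2b. Mtap, whose start lies at -137.4 kb from that of Cdkn2a, was at 75.6 and 46.5 CPM in PMs and 61.7 and 73.1 CPM in C2C12 cells (log2 fold change -0.14). Klhl9, at -556.2 kb, had a log2 fold change of 0.34 that did not pass. Within 1500 kb to either side, 14 of 52 genes were tested, 2 were higher and 1, the pseudogene Mrpl48-ps, was lower. The gap in reads therefore ended short of Mtap on that side, and its cause was not tested. On the other side Gm12609, Gm12610 and Gm12608 (at 188.5 kb) also had 0 counts in C2C12 cells. They had at most 10 reads in a PM library, so the end of the gap there cannot be placed. Dmrta1, at 425.8 kb, had 2 and 1 reads in C2C12 cells and the same in PMs. In a list of 8 genes of this wider neighbourhood 4 of 6 tested genes were higher, Mllt3 and Elavl2 beside Cdkn2a and Cdkn2b. The median log2 fold change was 4.19, or 1.59 with genes without reads set at the floor. Elavl2 was itself near the floor, with 9 and 7 reads in PMs and 0 counts in C2C12 cells (at least 2.28-fold higher).

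Hox genes, which record position along the body axis, showed a local difference of the same kind. Of 27 tested genes 6 were higher and 3 lower in PMs, with a median of 0.03. Hoxd8 was at 14.8 and 17.5 CPM and Hoxd9 at 7.57 and 5.87 CPM in PMs, and both had 0 counts in both C2C12 libraries (at least 147-fold and 58.5-fold higher). Hoxd10 and Hoxd3 were at 0.938 and 0.554 CPM and at 0.550 and 0.554 CPM, again with 0 counts in C2C12 cells. The antisense gene 1700109F18Rik of the cluster followed the same pattern, though its reads cannot be told from those of Hox genes on the other strand. On either side of the cluster (chromosome 2 of mm9, with Hoxd9 from 74535737 to 74538265) Lnp and Mtx2 were expressed in all 4 libraries. Lnp was at 74.3 and 57.0 CPM against 33.03 and 42.8 CPM, and Mtx2 at 65.8 and 59.1 CPM against 64.0 and 54.9 CPM. The other higher genes were Hoxa4 and Hoxc8, and Hoxb4 and Hoxc13 were among the lower ones. Hoxc13 was at 4.85 and 8.18 CPM against 17.96 and 21.4 CPM (log2 fold change -1.59).

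Other factors of limb position split evenly, with 10 of 31 tested genes higher and 9 lower (median -0.23). Twist1, a repressor of myogenic differentiation, was at 6.57 and 2.25 CPM in PMs and 0.0193 and 0.0668 CPM in C2C12 cells. The hindlimb factor Pitx1 was at 2.46 and 1.01 CPM against 0 and 0.0668 CPM, and Lmx1b and Hand2 had no count in C2C12 cells. Hand2 was low in PMs as well, at 0.453 and 0.196 CPM, and was at least 1.95-fold higher there. Irx3 was lower, at 11.9 and 22.1 CPM against 75.3 and 93.1 CPM (log2 fold change -2.31, edgeR adjusted p = 0.00022). Tbx18, Meis2, Msx1 and Irx5 were lower too, with log2 fold changes between -2.56 (Meis2) and -2.0 (Tbx18).

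Imprinted genes, of which cells use the copy from 1 parent, were higher in PMs in 22 of 31 cases and lower in none. Lower calls were 2 without PM replicate 1 or C2C12 replicate 2, and higher calls 18 to 20 without 1 library. Their median log2 fold change was 1.86, or 1.65 with genes without reads in C2C12 cells set at the floor, and at day 0 it was 3.91. H19, a long non-coding RNA, was the most abundant gene per kb in PMs (10930 and 10750 CPM per kb) and the sixth in C2C12 cells (4025 and 5210 CPM per kb). Its log2 fold change was 1.23 (edgeR adjusted p = 0.011). That call was lost without C2C12 replicate 1. Its neighbour Igf2, which drives myoblast differentiation as a growth factor, was at 2485 and 2708 CPM against 204 and 415 CPM (log2 fold change 3.07, edgeR adjusted p = 4.4e-05). Grb10, an adaptor that restrains insulin and Igf signals, was at 446 and 441 CPM against 1.04 and 1.44 CPM (log2 fold change 8.51 ± 0.38 SE, edgeR adjusted p = 1.8e-10). The receptor Igf2r, which removes Igf2, had a log2 fold change of 2.53.

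The Dlk1-Meg3 cluster was read in PMs and hardly at all in C2C12 cells. Meg3 was at 52.2 and 29.2 CPM in PMs, and C2C12 cells had 1 read and no read (ratio 3340, 95% counting interval from 598 to 132000). Rian was at 116 and 55.7 CPM against 0 counts, and was at least 555-fold higher. Mirg was at 1.78 and 0.978 CPM against 0 counts. Within 500 kb of the Meg3 start (chromosome 12 of mm9, from 110779211 to 110809936) 6 of 43 genes were tested. Of these, 5 were higher in PMs, Dlk1 and Rtl1 being the others, with 0 counts in C2C12 cells. Both were low in PMs as well. Dlk1 had 9 and 6 reads there (0.291 and 0.196 CPM), and Rtl1 had 9 and 8 reads (0.291 and 0.261 CPM). Asb4, imprinted elsewhere in the genome, had 3 reads in C2C12 replicate 1 and none in replicate 2, against 17.5 and 9.03 CPM in PMs.

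**Figure D4:**
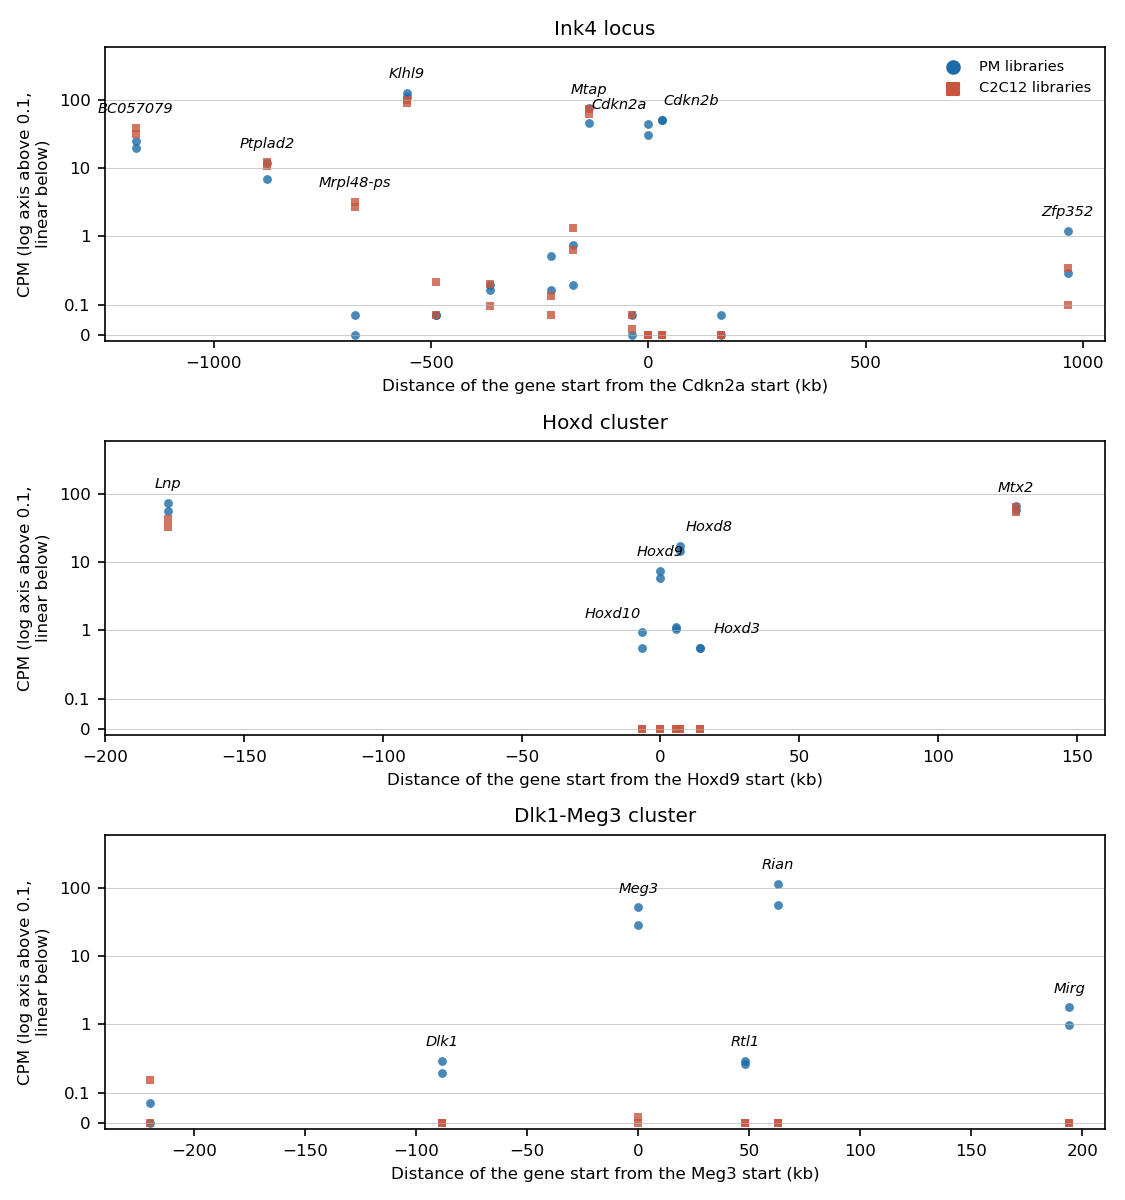
Level of the tested genes around Cdkn2a, Hoxd9 and Meg3 in each siControl library at day 6, in CPM on an axis that is logarithmic above 0.1 and linear below, against the distance of each gene start in kb. Squares (C2C12 cells) lie at or next to 0 within each cluster, while the nearest expressed neighbours, Mtap and Klhl9 for the first and Lnp and Mtx2 for the second, are expressed in both cell types.

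The lists of energy metabolism had positive medians, but not all held more genes called higher than the 15.5% of all tested genes. Among 28 regulators and enzymes of oxidative metabolism 11 were higher and none was lower (median log2 fold change 0.71). The orphan receptor Esrrg was at 15.5 and 30.4 CPM against 0.424 and 0.368 CPM (log2 fold change 5.83, edgeR adjusted p = 2.5e-07). Pdk4, which turns cells from glucose to fat, was at 660 and 475 CPM against 34.8 and 62.7 CPM (log2 fold change 3.54, edgeR adjusted p = 2.4e-06). Esrrb, Nr4a3 and the unnamed gene 2310042D19Rik were higher as well. Nuclear genes of the respiratory chain had 7 of 58 higher (12.1%, below that share) and none lower with a median of 0.56, led by the muscle isoforms Cox7a1 (42.8 and 28.6 CPM against 5.18 and 5.01 CPM), Cox6a2 (202 and 286 CPM against 58.3 and 47.9 CPM) and Cox8b. Of the 12 tested mitochondrially encoded genes mt-Nd2 passed (log2 fold change 1.01, 8.33% of the list, also below that share) and the median was 0.57, but no gene was called without PM replicate 1 or without either C2C12 replicate.

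Glucose and glycogen genes were higher in PMs in 11 of 31 cases, with 1 lower, Eno2, and a median of 0.84 (3 lower without PM replicate 2 and 2 without C2C12 replicate 1). The insulin-responsive transporter Slc2a4 (Glut4) was at 94.6 and 106 CPM against 7.57 and 3.27 CPM (log2 fold change 4.19, edgeR adjusted p = 2.5e-07). Muscle glycogen phosphorylase (Pygm) was at 1986 and 1772 CPM against 305 and 403 CPM, and its kinase subunit Phkg1 at 25.6 and 11.3 CPM against 0.424 and 0.468 CPM. Ppp1r3a and Ppp1r3c, which target a phosphatase to glycogen, had log2 fold changes of 3.34 and 5.29. In the fatty acid list 7 of 26 genes were higher and 1 lower (median 0.63), with the muscle carnitine transferase Cpt1b at 5.596 and 3.78 CPM against 0.193 and 0.1002 CPM and the transporter Slc27a1 lower in PMs (log2 fold change -1.99). Creatine and adenylate genes had 4 of 10 higher, Ckm, Ckmt2, Ak1 and Ampd1 (median 1.06, or 0.76 with genes without reads at the floor). The muscle creatine kinase Ckm was at 1477 and 1020 CPM against 412 and 482 CPM (log2 fold change 1.48, edgeR adjusted p = 0.030), a call lost without PM replicate 1 or either C2C12 replicate. The brain form Ckb was at 138 and 196 CPM against 141 and 194 CPM, an overlap of the ranges.

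Cholesterol synthesis went the other way, with 6 of 23 genes lower in PMs and none higher (median -0.78). Squalene epoxidase (Sqle) was at 57.6 and 57.9 CPM against 231 and 162 CPM (log2 fold change -1.77, edgeR adjusted p = 0.0012). Fdft1, Lss and Cyp51 were lower by log2 fold changes between -1.56 (Lss) and -1.20 (Fdft1), and the regulator Srebf2 was lower as well. Leaving out 1 library in turn gave 1 to 8 calls, with 1 call without PM replicate 1, 3 without PM replicate 2 and 2 without C2C12 replicate 1, so the count depends on single libraries.

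Extracellular matrix genes differed in both directions. Of 34 collagen genes 20 were higher and 6 lower in PMs, with a median log2 fold change of 1.75. Col1a1, the main chain of type I collagen, was at 2840 and 1796 CPM against 163 and 184 CPM (log2 fold change 3.74, edgeR adjusted p = 5.8e-05). It did not differ at day 0, when it was at 74.7 and 47.3 CPM in PMs and 49.8 and 43.8 CPM in C2C12 cells. Col15a1 was at 145 and 151 CPM against 0.193 and 0.769 CPM (log2 fold change 8.42, edgeR adjusted p = 2.7e-09). Type VI collagen, which surrounds muscle fibres, split by chain. Col6a1 was at 32.96 and 34.04 CPM in PMs and 275 and 278 CPM in C2C12 cells (log2 fold change -3.04, edgeR adjusted p = 0.0013), and Col6a2 had a log2 fold change of -3.30. Col6a6 was at 1.78 and 4.34 CPM in PMs and had no count in C2C12 cells. Col3a1, Col8a2, Col12a1 and Col22a1 were the other lower genes.

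Among basement membrane and matricellular genes 14 of 46 were higher and 6 lower (median 0.43). Thbs4, a matrix protein of tendon and muscle junctions, was at 54.7 and 52.9 CPM against 0.0964 and 0.0668 CPM (log2 fold change 9.25, edgeR adjusted p = 1.4e-08). Mfap4, Lama4 and Fbn2 were higher as well. Ogn, a small proteoglycan, was at 81.2 and 82.6 CPM against 663 and 313 CPM (log2 fold change -2.58), and Nid2, Lamb3, Fmod and Matn2 were also lower. Matrix proteases and their inhibitors had 9 of 35 higher and 9 lower (median -0.16). Serpine2, an inhibitor of thrombin, was at 72.5 and 69.0 CPM against 5.38 and 5.41 CPM (log2 fold change 3.71), and Mmp14, which activates gelatinase A, was at 174 and 153 CPM against 590 and 561 CPM (log2 fold change -1.82). In the integrin and cadherin list 10 of 27 genes were higher and 4 lower (median 0.12), with Itga9 at 35.2 and 74.9 CPM against 3.89 and 6.78 CPM and E-cadherin (Cdh1) at 0.518 and 0.489 CPM against 7.34 and 9.69 CPM.

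Markers of other cell types ranged from low to high summed levels and in part moved with these groups. The fibroblast list had 5 of 18 genes higher and 5 lower (median 0.38), with a summed level of 9302 and 7580 CPM in PMs and 5103 and 5101 CPM in C2C12 cells, most of it from collagens. Thy1, a surface protein of fibroblasts and other cells, was at 84.0 and 54.4 CPM in PMs and had 0 counts in both C2C12 libraries (at least 543-fold higher). Pdgfra, a defining marker, was at 9.54 and 4.79 CPM against 13.4 and 13.03 CPM, and Ly6a, Pi16, Clec3b and Pdgfrl were lower in PMs. Ly6a itself was uneven, at 194 and 42.9 CPM in the C2C12 replicates. Tcf21, another defining marker, was at 0 in all 4 libraries. The endothelial list had 5 of 12 genes higher and none lower (median 2.51, or 2.15 with genes without reads at the floor). Cdh5, Egfl7, Cldn5 and Eng were among the higher genes, with Cdh5 at 7.02 and 3.195 CPM against 0.0964 and 0.167 CPM. The summed level of the list was 62.0 and 48.7 CPM against 7.98 and 7.49 CPM. Most of this sum was Eng, at 38.3 and 36.4 CPM in PMs (3 genes of this list were called without either C2C12 replicate), whereas Pecam1 was at 0.938 and 0.228 CPM and Emcn at 1.16 and 0.0652 CPM.

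Schwann cell markers were uneven between the PM replicates. Of 10 tested genes 4 were higher and 1 lower (Pmp22), with a median of 1.04, or 0.19 with genes without reads at the floor, and a summed level of 338 and 312 CPM against 341 and 422 CPM. Most of this sum was Erbb3, which was not called (277 and 265 CPM against 231 and 326 CPM). Sox10, the defining factor, was at 4.01 CPM in PM replicate 1 and 0.359 CPM in replicate 2, against 1 read and no read in C2C12 cells, and Ngfr was at 12.9 and 2.84 CPM. Without PM replicate 1 or either C2C12 replicate the list had 1 gene called higher. Smooth muscle and pericyte markers had 5 of 11 higher (median 0.93), with Abcc9 at 184 and 189 CPM against 10.9 and 12.3 CPM and Myh11 at 5.402 and 0.620 CPM against 0.0771 and 0.1002 CPM. Acta2, which myoblasts also express, was at 1187 and 1511 CPM against 2405 and 2630 CPM. The summed level of this list was 8831 and 9213 CPM in PMs and 7359 and 8111 CPM in C2C12 cells. Most of it was Des, which is also one of the skeletal muscle markers (6471 and 6767 CPM against 4281 and 4525 CPM). The macrophage list summed to 4.98 and 5.87 CPM in PMs and 7.84 and 4.91 CPM in C2C12 cells, with 2 of 6 tested genes higher and 1 lower (median 0.71, with none higher without either C2C12 replicate and 1 without PM replicate 2) and 3 markers at 0 in all 4 libraries. The adipocyte list summed to 10.4 and 16.3 CPM against 29.1 and 23.4 CPM, with 1 of 3 tested genes, Pparg, lower in PMs and Adipoq among the genes that did not pass the filter. The part of such cells in the differences of matrix, signal and neuronal genes was not tested.

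**Figure D5:**
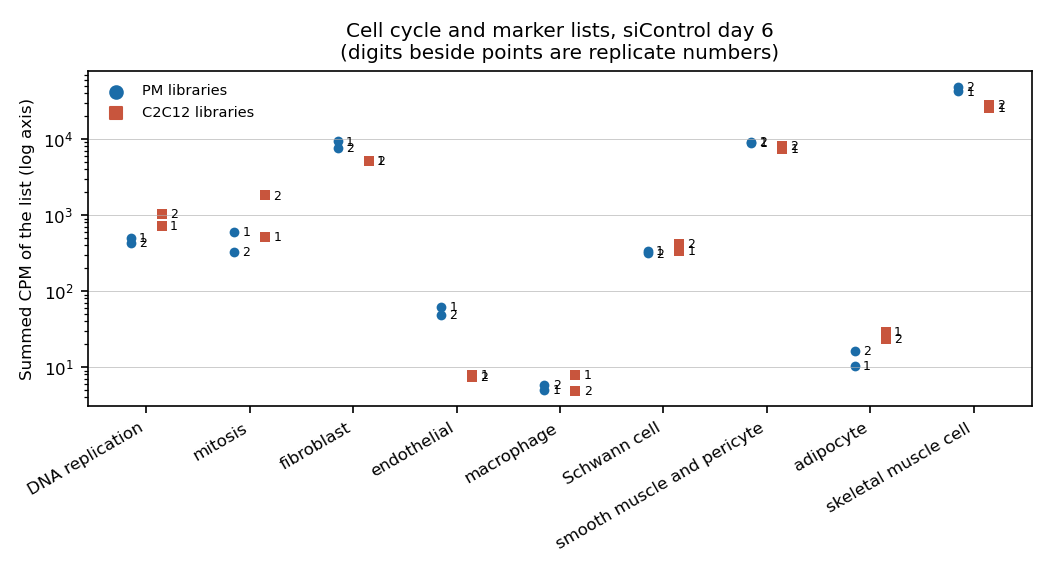
Summed CPM of the DNA replication and mitosis lists and of 7 lists of cell type markers in each siControl library at day 6, on a log axis, with circles for PMs, squares for C2C12 cells and the replicate number beside each point. For mitosis, C2C12 replicate 2 (1814 CPM) stands apart from the other 3 libraries (327 to 594 CPM), and the endothelial sum is higher in both PM libraries (62.0 and 48.7 CPM) than in C2C12 cells (7.98 and 7.49 CPM). Most of the smooth muscle and pericyte sum is Des, which is also on the skeletal muscle list, and most of the Schwann cell sum is Erbb3.

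Interferon response genes were higher in PMs in 18 of 41 cases and lower in 1 (Ifitm1), with a median log2 fold change of 1.76 against 0.24 at day 0. The summed level of the list did not separate the groups, at 477 and 524 CPM in PMs and 480 and 423 CPM in C2C12 cells, and the called genes were low. Rsad2 (viperin) was at 3.56 and 9.39 CPM in PMs and 1 read and no read in C2C12 cells (ratio 529, 95% counting interval from 94.3 to 20900). Usp18, which limits interferon signalling, was at 3.49 and 2.87 CPM against 0.0964 and 0 CPM, Cxcl10 at 2.39 and 2.90 CPM against 0.0386 and 0.134 CPM, and Ifi44 at 4.88 and 5.71 CPM against 0.0578 and 0.0334 CPM. Without C2C12 replicate 1 the list had 9 genes called higher and without replicate 2 it had 11. Antigen presentation genes had 5 of 19 higher and 3 lower (median -0.21). The peptide transporter Tap1 was at 7.93 and 5.18 CPM against 0.559 and 0.301 CPM, and H2-T23 at 5.69 and 9.55 CPM against 37.5 and 20.8 CPM. Histocompatibility genes are near copies of each other, so that their reads can be split between members and their differences are uncertain.

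Cytokines and chemokines had 7 of 37 tested genes higher and 13 lower (median -0.25). Il1b was at 0.0324 and 0.293 CPM in PMs and 6.28 and 3.54 CPM in C2C12 cells (log2 fold change -4.90, edgeR adjusted p = 4e-05). Cxcr7, a scavenger receptor for Cxcl12, was at 3.01 and 6.29 CPM against 64.8 and 28.0 CPM (log2 fold change -3.32), which adds to the lower Cxcr4 in PMs. Ccl8, Ccl11 and Cxcl5 were lower too. Higher calls in this list were 4 without PM replicate 1 or C2C12 replicate 1. Ccl27a was at 3.62 and 2.93 CPM in PMs and 1 read and no read in C2C12 cells, and Tnfsf18 at 7.02 and 5.35 CPM against 0.116 and 0.167 CPM.

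Signalling genes differed gene by gene rather than as lists. Of 53 Wnt pathway genes 17 were higher and 12 lower in PMs (median -0.16), with 7 lower without PM replicate 1. Wnt5a, a non-canonical ligand, was at 35.5 and 22.9 CPM against 0.0964 and 0.334 CPM (log2 fold change 7.23, edgeR adjusted p = 4.4e-07). Wnt10a was at 1.65 and 3.91 CPM against 114 and 93.4 CPM (log2 fold change -5.22, edgeR adjusted p = 3.9e-07), and the receptor Fzd1 at 17.6 and 25.1 CPM against 147 and 172 CPM. Fzd10 had no count in C2C12 cells and was at least 54.2-fold higher in PMs. The secreted inhibitors Frzb and Dkk2 were higher, and Sfrp2 was lower.

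Of 46 genes of Tgfb, BMP and activin signals 12 were higher and 7 lower (median -0.02). Myostatin (Mstn), which restrains muscle growth, was at 7.21 and 5.25 CPM in PMs against 0.0193 and 0.1002 CPM (ratio 128, 95% counting interval from 49.4 to 470). Bmp4 was at 0.485 and 0.293 CPM against 30.2 and 21.1 CPM (log2 fold change -6.03, edgeR adjusted p = 2.8e-06), and the activin subunit gene Inhbb at 7.41 and 9.03 CPM against 126 and 113 CPM (log2 fold change -3.86). The antagonists Grem1 and Fst were lower in PMs, with log2 fold changes of -3.92 and -2.31, and Gdf6 was higher at 4.63. In the Notch list 5 of 28 genes were higher (17.9%) and 4 lower (14.3%), against 15.5% and 9.13% of all tested genes (median -0.10). Dlk2 and Notch4 were among the higher genes, and Lfng, Dtx4, Notch2 and Notch3 were the lower ones. Without PM replicate 1 only 2 were called lower, and without C2C12 replicate 1 only 3 were called higher.

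In the insulin-like growth factor axis 5 of 17 genes were higher and 3 lower (median -0.10), with 1 lower without C2C12 replicate 1. Igfbp3 was at 98.6 and 142 CPM against 17.0 and 21.3 CPM (log2 fold change 2.65), and Igfbp4 at 17.6 and 26.9 CPM against 105 and 115 CPM (log2 fold change -2.31). Igfbp2 and Igfbp6 were lower, and the RNA-binding Igf2bp1 and Igf2bp3 higher, beside Igf2 and Igf2r. Other growth factors had 9 of 39 genes higher and 4 lower (median 0.16), with 2 lower without either PM replicate. Hgf, which wakes satellite cells, was at 4.08 and 4.63 CPM against 18.1 and 19.9 CPM (log2 fold change -2.12, edgeR adjusted p = 0.00028). Egf was at 12.3 and 13.6 CPM against 1.48 and 1.47 CPM (log2 fold change 3.13), and Fgf1 and Fgf9 were higher in PMs as well.

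Of 15 adipogenic genes 7 were higher and 2 lower (median 1.45), with the brown fat factors Ebf2 (7.60 and 6.49 CPM against 0 counts) and Prdm16 (1.36 and 0.717 CPM against 0 counts) higher and Pparg and Scd1 lower in PMs, of which Scd1 was lost without C2C12 replicate 1. Atrophy genes had 4 of 14 higher (median 0.54). The ubiquitin ligase Trim63 (MuRF1) was at 128 and 131 CPM against 61.9 and 62.3 CPM (log2 fold change 1.06, edgeR adjusted p = 0.0033), beside Fbxo31, Mstn and Klf15. Small heat shock proteins and chaperones had 5 of 16 higher and 1, Dnajb1, lower (median 0.73), a call lost without PM replicate 2 or C2C12 replicate 2. Hspb8, which acts with Bag3 at the Z-disc, was at 1898 and 1922 CPM against 258 and 263.2 CPM (log2 fold change 2.87 ± 0.20 SE, edgeR adjusted p = 1.6e-08), and Hspb6 at 184 and 108 CPM against 10.5 and 12.5 CPM. Neuronal genes had 8 of 20 higher and 4 lower (median 0.56), with 5, 4 and 5 higher without PM replicate 2, C2C12 replicate 1 and C2C12 replicate 2. Stmn2, a tubulin-binding protein of axons, was at 0.356 and 0.0978 CPM in PMs and 96.0 and 74.2 CPM in C2C12 cells (log2 fold change -8.53, edgeR adjusted p = 2.2e-09). Kcna1 was at 3.46 CPM in PM replicate 1 and 0.261 CPM in replicate 2, the same order as Sox10.

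Beyond the lists, the 15 widest differences in each direction were taken among genes above 10 CPM in the higher group. Higher in PMs were Rian, Thy1, Cdkn2b, Cdkn2a, Sln, Moxd1, Fam83g, Tfpi2, Wnk2, Adcy2, Hoxd8, Zcchc3, Adamts20, Cyba and the non-coding gene 5930412G12Rik. Of these Sln alone had a read in C2C12 cells. Adamts20, a protease of the versican matrix, was at 15.04 and 15.03 CPM in PMs, and Cyba, a subunit of the phagocyte NADPH oxidase, at 19.5 and 7.86 CPM. Moxd1 was at 42.0 and 12.4 CPM and the protease inhibitor Tfpi2 at 28.8 and 12.3 CPM. Lower in PMs were Fam5c, Ifi202b, Gpr97, Isx, Ly6c2, the pseudogenes Gm13394, Gm13443, Gm15487, Gm15772 and Eif3s6-ps2, the gene models Gm8420, Gm9000, Gm5506 and Rps26-ps1, and the non-coding Gm17431. Of these Fam5c, Ifi202b, Gpr97, Isx, Gm8420 and Gm17431 had no read in PMs, and the other genes had at most 10 reads in a PM library. Fam5c had no count in PMs and 117 and 56.8 CPM in C2C12 cells (at least 581-fold lower). Ifi202b, an interferon-inducible gene that differs between mouse strains, was at 37.8 and 34.0 CPM in C2C12 cells and had no count in PMs (at least 348-fold lower).

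By annotated class, pseudogenes leaned to C2C12 cells, with 51 of 546 higher in PMs (9.34%) and 120 lower (22%). Protein-coding genes had 15% higher and 8.92% lower of 14423. Long intergenic non-coding genes had 25.2% higher and 6.27% lower of 750, and antisense genes 25.8% and 7.38% of 325. Reads of a pseudogene and of its parent gene can be exchanged, so that these differences are uncertain. The libraries do not keep the strand, so reads of an antisense gene cannot be told from those of a gene it overlaps. The shares of the antisense class are therefore uncertain too. Per kb, the short gene models Mir5105 and Gm12563, the mitochondrial genes mt-Co3, mt-Co1, mt-Co2 and mt-Cytb, H19, Acta1 and Mylpf were among the 10 most abundant in both cell types. Myl1 was in this group in PMs and the pseudogene Gm15662 in C2C12 cells.

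The same cell types were also compared at day 6 after siTead1/4, by a contrast of 4 other libraries within the same fit. The 2 contrasts therefore share the filter, the scaling and the estimates of spread. After siTead1/4, 2854 genes were higher in PMs (17.5%) and 1825 lower (11.2%), 28.7% in all. The overlap with siControl was 2135 higher genes (84.6% of the siControl list and 74.8% of the siTead1/4 list) and 1173 lower genes (78.8% and 64.3%), and 3 genes were called in opposite directions, 1 and 2. The log2 fold change in siTead1/4 cells was 4.77 for Myh8, 9.22 for Cmya5, 4.85 for Myf6, 4.45 for Ccnd2, 3.17 for Col1a1 and 8.95 for Grb10. Cdkn2a, Cdkn2b, Hoxd8 and Hoxd9 were called higher there too. In the mitosis list 37 of 42 genes were lower in these PMs, with a median of -1.97, and in the interferon list 8 of 41 were higher, with a median of 0.63.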

How the data were processed

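mRNA libraries (polyA, unstranded) were mapped to mm9, and the authors deposited raw read counts per gene. The submitters' processing notes list CASAVA 1.8.2, TopHat2 2.0.10, Bowtie2 2.1.0, HTSeq 0.6.1 and DESeq2 1.8.1. The table also holds the authors' own normalised values and comparisons, which were not used, and 36 columns of 12 libraries not analysed here.

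Counts of 24 libraries in 12 groups were fitted with edgeR 4.0.16 (R 4.3.3, quasi-likelihood test, TMM factors, filterByExpr), with p-values adjusted over all genes tested. Scripts were tested on simulated data. Calls needed a log2 fold change beyond 1 in either direction and an adjusted p below 0.05. CPM are relative to the TMM-scaled library size. Folds against groups without counts are lower bounds, from a floor of 3 counts per library, and intervals cover counting error only. DESeq2 1.42.0, other factors, filters, blocks and left-out libraries were alternatives.

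The members and gene lists were chosen with earlier results of these data known. Named genes were the 15 widest differences in each direction with a mean of at least 10 CPM in the higher group, up to 5 called genes per list and direction, key muscle genes, members of lists of 13 or fewer genes, and the 10 most abundant per kb. Actn2, Mybpc1, Ryr1, Casq1, Atp2a1, Pvalb, Cacna1s, Vgll2, Hoxc8, Srebf2 and the neighbours of the loci (Gm12300, Mrpl48-ps, 1700109F18Rik, Lnp, Mtx2, Dlk1, Rtl1), with their windows, were chosen after their values were seen.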

Additional observations from a re-analysis of the deposited data

Results flagged for a closer look

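The difference between PMs and C2C12 cells was not the same at day 6 and day 0. The interaction test of edgeR called 876 genes towards a higher and 1190 towards a lower fold change of PM over C2C12 at day 6. Among muscle genes the log2 fold change was lower at day 6 than at day 0 by -7.09 for Myog, -7.90 for Myh3, -10.28 for Ankrd2, -5.78 for Myh6 and -2.33 for Pax7 as signed differences. It was higher by 4.38 for Tmod4 and 2.67 for Myoz1. Outside muscle it was higher by 3.00 for Ccnd1 and 3.36 for Col1a1. Each of these 9 genes passed the interaction test at an adjusted p under 0.05.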

How the results depend on the processing

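At day 6 the counts of genes higher and lower in PMs (2525 and 1489) stayed within 1.5 times their value under each alternative run except 2. These were a stricter filter that asked every library for 10 counts (1259 and 936, fewer genes tested) and edgeR's glmTreat, which tests against the fold limit itself (1591 and 767). Leaving out 1 library gave 2004 to 2222 and 1285 to 1496. DESeq2 gave 2397 and 1451. Upper quartile factors moved the median of all genes to 0.11 and the share of higher calls from 62.9% to 67.4%. That share was 67.5% with glmTreat. It fell to 57.4% with the stricter filter, which leaves out genes with few counts in either cell type. Of 735 list medians under the alternatives 44 moved by more than the spread between replicates, and 11 of 49 lists changed sign under some alternative. Of 243 called genes named, 183 were called under every alternative that tested them.

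The difference at day 6 against day 3 had no call, but 46 higher and 14 lower with the 12 siControl libraries, 88 and 25 with DESeq2, 214 and 60 without a filter, 3 and 2 with at least 10 counts in every library, 1 lower with the libraries of the contrast only, and 0 to 3 higher and 0 to 1 lower without 1 library. The cause was not tested. Against day 0, lower calls were 757 with at least 10 counts in every library, and 609 to 802 higher and 926 to 1084 lower without 1 library.

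Replicate numbers are shared by both cell types. The deviations of same-numbered PM and C2C12 libraries correlated at -0.172 at day 6, so the numbers were not taken to pair samples across cell types. Within a cell type same-numbered libraries of different days correlated at 0.127 to 0.26 (PM) and 0.149 to 0.332 (C2C12), a hint from the data that a number may mark a shared culture. With the replicate block the counts were 2571 and 1512 at day 6, 940 and 1235 against day 0, and 20 and 4 against day 3. A block within each cell type gave 41 and 9 against day 3. The crossed block, chosen after seeing the data, gave 2583 and 1516 at day 6.

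Of the genes named but not called, 13 changed sign under some alternative. Cdkn1a was at 0.001 (RLE factors), 0.02 (at least 10 counts in every library) and 0.083 (upper quartile factors), Chrna1 at 0.002 and 0.064 under the latter 2, and Ckb at 0.004 (DESeq2), 0.007 (RLE factors), 0.028 (at least 10 counts), 0.005 (contrast only), 0.007 (crossed block) and 0.091 (upper quartile factors). Gm15662 was at 0.002 and Pax7 at 0.015 with upper quartile factors. Without 1 library the log2 fold change ran from -0.177 to 0.104 for Cdkn1a, -0.434 to 0.254 for Chrna1, -0.297 to 0.228 for Ckb, -0.55 to 0.382 for Gm12563, -0.458 to 0.362 for Gm15662, -0.569 to 0.421 for Mir5105, -2.291 to 0.256 for Mki67, -0.555 to 0.148 for Mtap, -0.049 to 0.163 for Mtx2, -0.228 to 0.714 for Myf5, -0.011 to 0.477 for Myog, -0.396 to 0.215 for Pax7 and -0.481 to 0.001 for Tmem8c.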
